A study of Brassica napus with 14 samples.

Results

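The heart-stage genes of Brassica napus seed were defined as genes whose FPKM (fragments mapped to a transcript, scaled by its length and by the mapped fragments of the library) was at least 5 at the heart stage and whose log2(FPKM + 1) there was at least 1 unit, or 2-fold, above the highest of the 4 other stages. This rule found 685 genes among 21101 with FPKM of at least 5 at the heart stage, in a table of 96219 genes. The share was 3.25% of the genes considered. The stage values themselves chose these genes, so their height at the heart stage is a description and was not tested. In what follows, "difference" means log2(FPKM + 1) at the heart stage minus the highest value of any other stage on the same scale, and levels are FPKM.

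Polyadenylated RNA was sequenced from ovules and seeds of the oilseed rape line DH12075, an allotetraploid with an A and a C subgenome. The 5 stages were ovules at day 0 (OV), and seeds collected after hand pollination at day 7 (globular, GLOB), day 10 (HEART), day 28 (MG) and day 35 (DS). There were 3 libraries per stage and 2 for DS, all from growth-chamber plants of the same line with no other treatment. For each gene the deposited table gives a single value in a stage. The spread between libraries is therefore not known here, no test was possible and the sequencing depth is unknown.

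At the heart stage the cotyledons emerge and the embryo takes on bilateral symmetry. Around it the endosperm nourishes the embryo and turns from a syncytium into cells, while the seed coat makes flavonoid pigments and, in its outer cells, mucilage. Storage oil and protein are laid down later, at maturation. The RNA came from whole seeds, so a larger share of a tissue in the seed and more RNA per cell of that tissue cannot be told apart in any value below.

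The stage labels were set against tissue markers known from Arabidopsis, as FPKM summed over all B. napus genes paired with each locus. The roles given here and below are those of the Arabidopsis genes. LEC1, a subunit of the embryo transcription factor NF-Y, stood at 65.7 in HEART and at no more than 0.677 in any other stage. LEC2, a B3 transcription factor of the embryo, stood at 9.40 in HEART and at no more than 0.226 elsewhere. The embryo markers WOX2, WOX9, STM and PLT1 were under 1 in HEART. Of these, STM was highest in HEART, at 0.177. WOX2 and PLT1 were highest in DS, at 5.44 and 0.335, and WOX9 in MG, at 3.92. Of the 6 endosperm markers, ZOU, IKU2, ALE1 and MYB118 were highest in HEART, IKU2 at 0.0197, and the summed level of the 6 was 54.9 against 3.07 to 18.3 in the other stages. MYB118 alone made up 39.3 of the 54.9 in HEART and 12.4 of the 18.3 in MG, while AGL62 was highest in MG and MINI3 in GLOB. The 6 seed coat markers summed to 326 in HEART, 419 in GLOB and 393 in OV. TT16 alone made up 42.0 of this in HEART, 190 in GLOB and 378 in OV. The storage genes SESA1, CRU1 and OLEO1 summed to 56.8 in HEART and 210573 in MG. HEART thus carried transcripts of endosperm and seed coat markers together with LEC1 and LEC2, the only embryo markers that reached 1 FPKM there. The part of each tissue in the 685 genes was not tested.

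The stage just before was most often next, for the heart-stage genes as for all genes highest in HEART. GLOB held the next highest value for 488 of the 685 genes (71.2%) and MG for 134 (19.6%), while OV did so for 27 and DS for 17, and 19 genes were listed at 0 in all 4 other stages. Among all 4090 genes considered whose highest value was in HEART, GLOB was next for 73.1% and MG for 11.3%. The GLOB share of the heart-stage genes was thus near that of all such genes, and their MG share was higher. Neither difference was tested. GLOB was sampled 3 days before HEART. Set against single stages, HEART was at least 2-fold above GLOB for 1212 of the genes considered (5.74%), above OV for 5642 (26.7%), above MG for 6808 (32.3%) and above DS for 9549 (45.3%), so the GLOB value limited the count most. With the same rule turned on each other stage, 1145 genes (5.62% of 20384) stood out in OV, 379 (1.84% of 20562) in GLOB, 2358 (12.1% of 19509) in MG and 4524 (22.9% of 19730) in DS. These counts depend on the scaling between stages. With all stages brought to a common sum they were 4015 in OV and 853 in MG, which turns the order of those stages, and 1009 in HEART. The differences between the counts were not tested.

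Most heart-stage genes were low elsewhere, as the rule asks for values at least 2-fold below HEART in every other stage. Their median FPKM came to 0.0857 in OV, 2.40 in GLOB and 17.4 in HEART, then 0.525 in MG and 0 in DS. In OV 256 of them were listed at 0, in GLOB 42, in MG 179 and in DS 357. A value of exactly 0 may stand for an estimate that failed. A GLOB value of at least 1 was found for 480 genes, against 141 in OV, 254 in MG and 92 in DS. For these counts and those at 0, the shares over all genes considered were not computed. All 4 other stages were under 1 FPKM for 145 genes. These were all such genes among those considered, since the rule takes in every one. The summed FPKM of the 685 genes came to 721 in OV, 5070 in GLOB and 27430 in HEART, then 1630 in MG and 398 in DS. That is 4.62% of all summed FPKM in HEART and at most 0.792% in any other stage. The choice of genes favours this gap too.

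Their HEART levels ran from 5.02 to 1128 FPKM with a median of 17.4, beside 12.0 over all genes considered. At least 100 FPKM was reached by 50 genes, which held 45.8% of the summed level, and the top 10 held 21.2%. The median difference was 1.83, against -0.49 over all genes considered. The difference lay between 1 and 2 for 382 genes and reached 2 for 303, 3 for 125, 4 for 46, 5 for 20 and 6 for 7. GLOB was the next stage for 195 of the 303 genes (64.4%) and for 70 of the 125 (56.0%), and MG for 79 and 40 of them. Genes next highest in MG had a median difference of 2.34, and those next highest in GLOB 1.76.

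**Figure D1:**
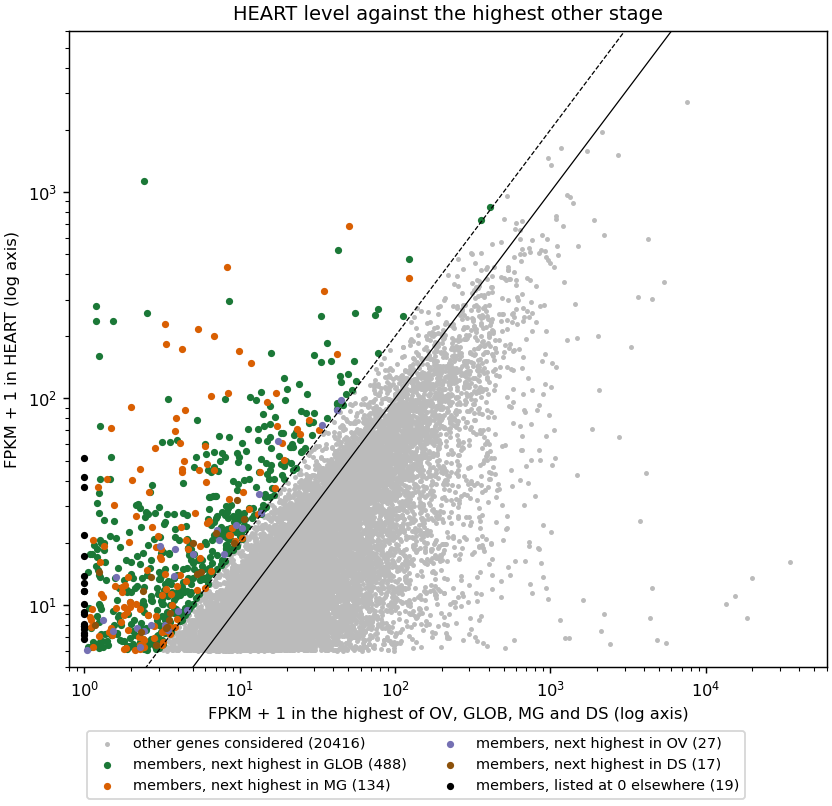
FPKM + 1 in HEART (log axis) against FPKM + 1 in the highest of the 4 other stages (log axis), with 1 point per gene at HEART FPKM of at least 5, the solid line marking equality and the dashed line 2-fold. The 685 heart-stage genes lie on or above the dashed line, coloured by the stage with the next highest value, and BnaN01g05550 lies highest at 1128 FPKM in HEART.

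Set against the stages just before and just after, 128 genes were at least 8-fold above both GLOB and MG. Another 170 were less than 4-fold above GLOB and at least 8-fold above MG, while 16 were at least 8-fold above GLOB and less than 4-fold above MG. The remainder included 65 genes less than 4-fold above both. The stage values behind these counts also chose the genes. Shares over all genes considered were not computed, so the counts describe the 685 genes alone. The median of HEART minus GLOB over the 685 genes was 2.04 on the log2 scale and that of HEART minus MG was 3.25.

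The largest difference belonged to BnaN01g05550, on chromosome 1 of the A subgenome and paired with the Arabidopsis locus AT4G32110. Its FPKM was listed at 0 in OV, 1.41 in GLOB, 1128 in HEART and listed at 0 in MG and DS, a difference of 8.87. It was also the highest of all 685 genes in HEART. The table pairs 5 B. napus genes with this locus, and 4 of them were heart-stage genes, at 1128, 430, 172 and 40.6 FPKM in HEART. Their other values did not exceed 7.30, which BnaN02g29850 had in MG. Summed over the 5 genes, the locus stood at 0.0348 in OV, 1.55 in GLOB and 1771 in HEART, then 10.6 in MG and 0.132 in DS. BnaN01g05560, next to BnaN01g05550 and paired with AT4G32100, was a heart-stage gene as well, at 20.1 FPKM.

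The next genes by difference were low before HEART. BnaN13g33460, which has no Arabidopsis locus, stood at 0.0883 in OV, 0.186 in GLOB and 278 in HEART, with both MG and DS listed at 0. BnaN08g30910, paired with AT1G04645, a self-incompatibility S1-like secreted protein, was listed at 0 in OV and stood at 0.184 in GLOB and 236 in HEART, then 0.0815 in MG and 2.99e-05 in DS. BnaN11g25120, paired with AT1G10190, was listed at 0 in OV and stood at 0.515 in GLOB and 236 in HEART, then 0.0368 in MG and 0.0266 in DS. All 3 were under 1 FPKM in each of the 4 other stages. BnaN06g31140, paired with AT2G25295, was listed at 0 in DS, MG and OV and stood at 1.53 in GLOB and 259 in HEART. BnaN06g08530, with no locus, stood at 1.02 in OV, 1.94 in GLOB and 227 in HEART, then 2.30 in MG and 0.136 in DS. Among the 20 genes with the largest difference and HEART FPKM of at least 10, the next highest value was under 1 FPKM for 12, and 10 lay on each subgenome. They shared 12 Arabidopsis loci, and 2 had none.

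**Figure D2:**
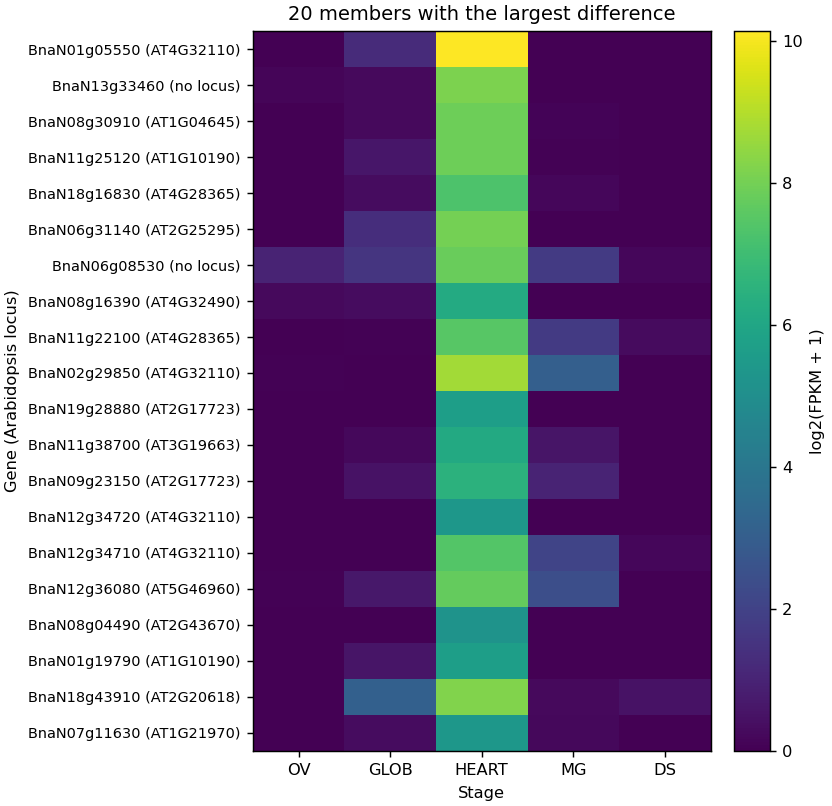
log2(FPKM + 1) of the 20 heart-stage genes with the largest difference, in rows, over the 5 stages, in columns, with the Arabidopsis locus in brackets and colour from 0 to the highest value. The HEART column is the brightest in every row, and the OV and DS columns are dark, with 15 genes listed at 0 in OV and 14 in DS.

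By level, the order was different. BnaN17g49910, paired with XTH24, a xyloglucan endotransglucosylase/hydrolase that remodels the cell wall, stood at 21.1 in OV, 409 in GLOB and 842 in HEART, then 5.04 in MG and 0.714 in DS. BnaN12g11710, paired with the lipid transfer protein LTP3, stood at 0.404 in OV, 357 in GLOB and 732 in HEART, then 0.665 in MG and 0.420 in DS. Both were barely 2-fold above GLOB, at differences of 1.04 and 1.03. With stages rescaled by the median of ratios the difference of BnaN12g11710 became 0.999 and missed the limit. BnaN14g38850 and BnaN04g09610, of a family of lipid transfer proteins and inhibitors, were next highest in MG instead. BnaN14g38850, paired with AT5G38180, stood at 0.0817 in OV, 0.665 in GLOB and 686 in HEART, then 49.5 in MG and 0.316 in DS. BnaN04g09610, paired with AT5G38195, stood at 0.0975 in OV, 0.434 in GLOB and 382 in HEART, then 122 in MG and 0.0942 in DS. The table gives these 2 genes the same identifier of the cultivar Darmor, as it does for 68 of the 685 genes, which share 32 such identifiers.

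Protein-degrading enzymes and their inhibitors were both present. BnaN06g37940, paired with the senescence-associated cysteine protease SAG12, was listed at 0 in OV and stood at 42.2 in GLOB and 522 in HEART, then 6.27 in MG and 0.0581 in DS. Its relative BnaN17g24160, paired with the same locus, was listed at 0 in DS, MG and OV and stood at 2.97 in GLOB and 62.0 in HEART. BnaN13g29030 was paired with CEP1, a papain-type protease of programmed cell death in the Arabidopsis tapetum. It stood at 0.233 in OV, 10.3 in GLOB, 45.4 in HEART and 0.562 in MG and was listed at 0 in DS. The other CEP1 copy, BnaN03g23860, was more abundant, at 73.5 in GLOB and 122 in HEART, and missed the limit with a difference of 0.72. Summed over both copies, the difference of CEP1 was 0.987, under the limit. The aspartic protease PASPA3, a marker of developmental cell death, had 1 heart-stage gene, BnaN09g23090, at 6.81 in HEART and 2.82 in MG. Its difference of 1.03 missed the limit under the median of ratios and quantile normalization, at 0.967 and 0.858. Of the list of vacuolar processing and cell death genes, 2 of 9 copies with HEART FPKM of at least 5 were heart-stage genes and 2 were at least 2-fold lower in HEART than in another stage. Of the cystatins, inhibitors of cysteine proteases, 5 of 19 were heart-stage genes, 4 of them copies of CYS4. Among the 4, BnaN08g10080 missed the limit under the median of ratios, at 0.989. Summed over copies, CYS5 was highest in MG and CYS2 and CYS6 in DS. That family, like the early nodulin-like, fasciclin-like, dehydrin and Dof4 families below, was picked after its values were seen. BnaN01g18550, a copy of CYS4, stood at 0.178 in OV, 14.7 in GLOB and 63.7 in HEART, with both MG and DS listed at 0.

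Lists of genes with known seed roles show where the heart-stage genes fell. "Copies" below are the B. napus genes that the table pairs with a listed Arabidopsis locus, and those with HEART FPKM of at least 5 were considered. Among the 21101 genes considered, 3.25% were heart-stage genes and the median difference was -0.49.

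The embryo regulators of maturation gave 3 heart-stage genes among 12 copies, all 3 paired with LEC1, which maintains embryonic identity. BnaN07g11630 was listed at 0 in OV and DS and stood at 0.251 in GLOB, 39.8 in HEART and 0.157 in MG. BnaN17g19190 stood at 18.9 and BnaN09g35590 at 6.80 in HEART, and neither exceeded 0.271 in another stage. The 4 further LEC1 copies did not exceed 0.117 in any stage. The 4 copies of LEC2 were highest in HEART too, at 4.75, 2.15, 1.37 and 1.13, which is under the 5 FPKM the rule asks for.

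The later regulators had another order. L1L, the closest relative of LEC1, stood in HEART at 4.62, 2.87 and 2.04 in its 3 detected copies and in MG at 71.9, 21.1 and 29.6. The 4 copies of FUS3, a B3 factor of maturation, stood at 1.04 to 2.52 in HEART and at 3.41 to 47.2 in MG. The 2 copies of ABI3, a B3 factor of abscisic acid response, stood at 0.719 and 1.09 in HEART and at 63.2 and 82.4 in MG. WRI1, which activates fatty acid synthesis, was at 10.95 to 34.6 in its 5 copies in HEART. Of these, BnaN09g39370 and BnaN18g32750 were highest in HEART by differences of 0.62 and 0.77, BnaN07g17720 and BnaN16g18240 were highest in MG, and BnaN01g26300 was highest in DS. The list as a whole held 6 genes past the limit instead of 3 when each stage was rescaled to a common sum.

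Endosperm genes gave 1 heart-stage gene among 12 copies, with a median difference of -0.83. It was BnaN12g41600, paired with MYB118, a transcription factor that holds back maturation in the Arabidopsis endosperm. It was listed at 0 in OV and stood at 0.0745 in GLOB and 20.5 in HEART, then 1.96 in MG and 0.0247 in DS. With a HEART minimum of 1 FPKM the list had 9 such genes among 28 copies. The embryo patterning genes had none among the 10 copies, of 151, that reached 5 FPKM in HEART.

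Seed coat flavonoid genes gave 8 heart-stage genes among 44 copies, with a median difference of 0.23, and 26 of the 44 were highest in HEART. A pair of copies of chalcone synthase (CHS), the enzyme of the entry step of the pathway, had the largest differences. They were minor copies, since the 18 CHS copies summed to 594 in GLOB, 1341 in HEART and 991 in MG, a difference of 0.44. BnaN02g36840 was listed at 0 in OV and stood at 0.0614 in GLOB and 19.1 in HEART, then 0.932 in MG and 0.0282 in DS. BnaN12g43560 was listed at 0 in OV and DS and stood at 0.0185 in GLOB, 18.4 in HEART and 0.333 in MG. The other 6 were detected at 1 FPKM or more in GLOB. BnaN09g36660, for flavanone 3-hydroxylase, stood at 0.113 in OV, 53.6 in GLOB and 150 in HEART, then 52.7 in MG and 0.665 in DS. BnaN18g33590, for chalcone isomerase, stood at 104 in HEART and 47.1 in GLOB. BnaN19g51690 and BnaN02g06540, for the glutathione transferase TT19 that carries pigment precursors, stood at 50.03 and 13.0 in HEART. BnaN16g21240, for the vacuolar transporter TT12, stood at 26.6, and BnaN19g59080, for flavonoid 3'-hydroxylase, at 20.1. Their differences were 1.01 and 1.03, and both missed the limit under the median of ratios, at 0.98 and 0.958. With a common sum per stage, the list had 20 such genes among 51 copies.

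Seed coat mucilage genes gave 10 heart-stage genes among 39 copies, with a median difference of 0.34, and 27 of the 39 were highest in HEART. They included wall enzymes and transcription factors. CESA5, a cellulose synthase of mucilage, had BnaN13g04100 at 3.12 in OV, 3.31 in GLOB and 37.9 in HEART, then 2.06 in MG and 0.240 in DS, and BnaN03g03600 at 16.6 in HEART. BXL1, which trims arabinan in the mucilage, had BnaN06g30860 at 32.7 and BnaN02g37250 at 18.2 in HEART, with no more than 5.69 elsewhere. MUCI21, a xylosyltransferase, had BnaN15g49920 at 16.8 in HEART and 2.13 in GLOB. NARS1, a NAC factor of integument development, had 3 heart-stage genes at 75.5, 54.5 and 13.4 in HEART, with 20.8, 24.1 and 4.46 in GLOB. MYB61, a regulator of mucilage, had BnaN15g06740 at 10.7 in HEART, and the subtilase SBT1.7, needed for mucilage release, had BnaN12g49740 at 20.8 in HEART and 7.57 in MG. The 7 copies of MYB61 together stood at 144 in GLOB and 177 in HEART, a difference of 0.29. The 20 copies of SBT1.7 together were higher in MG, at 238, and in DS, at 178, than in HEART, at 64.5. The summed seed coat markers were lower in HEART than in GLOB, mostly through TT16, at 42.0 against 190. TT2 and MUM4 were lower as well, at 17.8 against 25.4 and 15.6 against 17.8. BAN, the reductase of proanthocyanidin synthesis, was higher, at 248 against 185. MUM2 and PER36 were also higher in HEART, at 0.387 and 2.08.

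Several lists held none. None of 58 copies for plastid fatty acid synthesis was a heart-stage gene, 44 were at least 2-fold lower in HEART than in another stage, and the median difference was -1.71. The 6 copies of storage and late maturation genes had a median difference of -10.49. The 29 copies of cell division genes held none, with 16 at least 2-fold lower than in another stage and a median of -1.21. Abscisic acid synthesis and breakdown (16 copies), sugar transport and cleavage (12), cuticle (26) and gibberellin synthesis and inactivation (1) held none either, with medians of -0.29, -1.10, -0.13 and -3.66. No heart-stage gene appeared in these lists with a pseudocount of 0.1, with a common sum per stage or with a HEART minimum of 1 FPKM. Auxin synthesis had 1 among 2 copies, Bna03034s0010, paired with the tryptophan aminotransferase TAA1. It stood at 1.21 in OV, 0.266 in GLOB and 28.1 in HEART, then 10.4 in MG and 0.229 in DS. Summed over its 6 copies TAA1 stood at 61.5 in HEART and 32.2 in MG, a difference of 0.91.

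**Figure D3:**
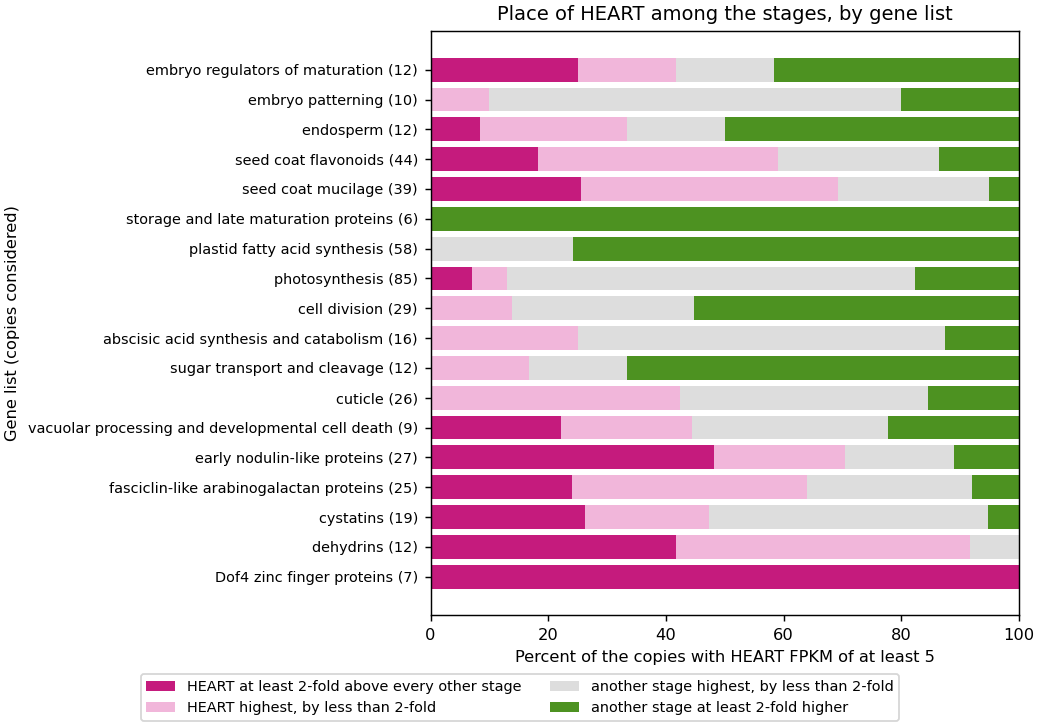
Percent of the copies with HEART FPKM of at least 5, for each list with at least 5 such copies (number in brackets), split by the place of HEART among the 5 stages. Early nodulin-like proteins (13 of 27), dehydrins (5 of 12) and the Dof4 locus (7 of 7) have the longest bars of heart-stage genes, and these families were picked after their values were seen.

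Photosynthesis gave 6 heart-stage genes among 85 copies, with a median difference of -0.57, and 4 of the 6 encode the small subunit of Rubisco, the carbon-fixing enzyme. Bna18368s0010, paired with RBCS1B, was listed at 0 in OV and stood at 32.4 in GLOB and 250.4 in HEART, then 25.2 in MG and 10.6 in DS. Bna06203s0010, paired with RBCS1A, was listed at 0 in OV and stood at 3.61 in GLOB and 101 in HEART, then 5.56 in MG and 2.58 in DS. BnaN02g16660 and BnaN02g16690, both paired with RBCS1B, stood at 44.6 and 17.9 in HEART. The 5 further RBCS1B copies considered were of another kind, with OV values of 22.1 to 400 and none of them passed the 2-fold limit in HEART. The remaining 2 were BnaN07g07110 for PSAF, at 12.2, and BnaN16g08120 for PSAG, at 5.43, both subunits of photosystem I. Summed over copies, PSAF stood at 141 and PSAG at 125 in HEART, below 170 and 153 in GLOB. The 9 copies of RBCS1B summed to 807 in OV and 888 in HEART, a difference of 0.14, under the limit. RBCS1A had no further copy.

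Early nodulin-like proteins are plasma membrane glycoproteins with a plastocyanin-like domain, and 13 of their 27 copies considered were heart-stage genes, with a median difference of 0.84 over the 27. The 3 ENODL3 copies were the highest. BnaN11g22100 was listed at 0 in OV and stood at 0.0301 in GLOB and 183 in HEART, then 2.35 in MG and 0.233 in DS. BnaN18g16830 was listed at 0 in OV and DS and stood at 0.247 in GLOB, 160 in HEART and 0.128 in MG. BnaN01g17630 stood at 79.3 in HEART, and its next value was 2.91 in MG. ENODL4 had BnaN08g16390 at 72.9 in HEART and at no more than 0.260 elsewhere, and the table gives it the same Darmor identifier as BnaN18g16830. ENODL15 and ENODL2 differed from these in that OV was not low. BnaN17g50910, of ENODL15, stood at 21.6 in OV, 22.0 in GLOB, 68.0 in HEART and 0.236 in MG and was listed at 0 in DS. Among the 3 ENODL2 heart-stage genes the OV values were 2.79 to 3.13, while the fourth copy considered, BnaN11g21180, stood at 10.3 in HEART and 110 in MG.

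Fasciclin-like arabinogalactan proteins, also of the cell surface, had 6 heart-stage genes among 25 copies and a median difference of 0.59, and 11 such genes with a common sum per stage. A pair of FLA10 copies, BnaN07g20450 and BnaN16g22240, stood at 9.93 and 7.76 in HEART and at no more than 0.312 in any other stage. They were minor copies, since the 4 FLA10 copies summed to 109 in GLOB and 117 in HEART, a difference of 0.10. A pair of FLA16 copies, BnaN14g54700 and BnaN13g20180, stood at 69.7 and 29.6 in HEART, with 22.5 and 7.82 in the next stage. AGP19, an arabinogalactan protein, had both of its copies among the heart-stage genes, BnaN16g35510 at 107 and BnaN07g29430 at 98.6 in HEART, with 12.7 and 7.02 in GLOB.

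Loci of the invertase and pectin methylesterase inhibitor family, AT5G46960, AT5G50070 and AT3G17152, had 13 heart-stage genes out of 19 copies in the table, and the other 6 were under 5 FPKM in HEART. These loci are shown because each had at least 3 heart-stage genes, so the count describes the choice and not the family. PMEI6, an inhibitor of the same family in the mucilage list, had none and stood at 3.34 in HEART and 37.0 in DS, summed over its copies. The highest in HEART was BnaN12g36080, which stood at 0.0527 in OV, 0.575 in GLOB, 216 in HEART and 4.4 in MG and was listed at 0 in DS. BnaN12g20670 was listed at 0 in DS, MG and OV and stood at 35.5 in GLOB and 185 in HEART. No OV value among the 13 exceeded 0.381 and no DS value exceeded 0.0547.

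Small secreted proteins were also among them. Of the loci below, AT3G57310, AT5G38440 and AT1G54445 are shown because each had at least 3 heart-stage genes. AT3G57310, a lipid transfer protein locus, had 8 heart-stage genes among 9 copies, at 28.7 to 251 FPKM in HEART. The highest of them, BnaN08g29760, was listed at 0 in OV and DS and stood at 73.6 in GLOB, 251 in HEART and 0.502 in MG. The ninth copy, BnaN18g02830, missed the limit with a difference of 0.96. AT5G38440, another S1-like protein, had 3, of which BnaN03g01100 stood at 98.2 in HEART and 2.45 in GLOB. The defensin-like locus AT1G54445 had 3, at 50.9, 50.8 and 42.9 in HEART and at no more than 8.88 elsewhere. The GASA-type peptide locus AT5G59845 had BnaN13g12050 at 474 in HEART and 122 in GLOB, and BnaN10g14290 at 16.6 in HEART and 0.0889 in GLOB.

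Stress-associated dehydrins and hormone enzymes were present in smaller numbers. Of 18 dehydrin copies in the table, 12 reached 5 FPKM in HEART, and 5 of these were heart-stage genes. The 12 belong to ERD10, ERD14 and HIRD11. The dehydrins RAB18 and XERO1 were highest in DS instead. Summed over its copies, RAB18 stood at 2.03 in HEART against 12039 in MG and 22081 in DS. XERO1 stood at 0.731 in HEART against 807 in MG and 2180 in DS. ERD14 had BnaN16g42310 at 16.9 in OV, 111 in GLOB and 250.3 in HEART, then 16.8 in MG and 5.16 in DS. The 6 ERD14 copies summed to 626 in GLOB and 1146 in HEART, a difference of 0.87, under the limit. ERD10 had BnaN06g14480 at 70.4 and BnaN07g12320 at 43.9 in HEART, and its summed copies had a difference of 2.11. Both copies of GH3.9, of a family that conjugates auxin, were heart-stage genes, BnaN14g00230 at 92.2 and BnaN05g00230 at 49.2, although the former missed the limit under the median of ratios, at 0.984. Both copies of IAMT1, which methylates auxin, were as well, BnaN10g10400 at 18.3 and BnaN19g39960 at 11.5. These auxin enzymes were singled out after their values were seen.

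Among transcription factors, the Dof zinc finger locus AT4G21050 (DOF4.4) had 7 heart-stage genes, which were all of its copies with HEART FPKM of at least 5 out of 23. They stood at 9.001 to 23.6 in HEART, all were listed at 0 in OV, and their highest value elsewhere was 2.28. The C2H2 zinc finger gene IDD4, shown because it had at least 3 heart-stage genes, had 3 among 7 copies considered. BnaN07g35170 stood at 3.29 in OV, 11.8 in GLOB, 97.2 in HEART and 1.23 in MG and was listed at 0 in DS. The other 4 copies considered were highest in HEART too, at 7.20 to 14.4, with differences of 0.69 to 0.96. Both AGL91 and MYB77 were singled out after their values were seen. The MADS-box gene AGL91 had BnaN03g29970 at 12.5 and BnaN13g36730 at 11.2 in HEART, and MYB77 had BnaN18g28900 at 164 in HEART and 76.1 in GLOB.

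The heart-stage genes with an Arabidopsis locus were spread over 462 loci, and 42 of the 685 had none. Of these loci, 334 had 1 heart-stage gene, 94 had 2 and 34 had at least 3, together 121 genes. In 32 of the 34, heart-stage genes lay on both subgenomes, and in 23 every copy with HEART FPKM of at least 5 was a heart-stage gene. With FPKM summed over all copies, 27 of the 34 were at least 2-fold above every other stage, beside 244 of all 462 loci. The 34 were chosen for their heart-stage genes, so these counts describe the choice. Besides the heart-stage genes, the 462 loci had 2180 further copies. Of these, 1135 never reached 1 FPKM, and 469 reached 5 in HEART. HEART was the highest stage for 216 of the 469 (46.1%), beside 16.7% of all genes considered that were not heart-stage genes. Among the 1045 further copies that reached 1 FPKM in any stage, 411 were highest in HEART, 200 in GLOB, 182 in MG, 151 in DS and 101 in OV.

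At some loci the heart-stage copies sat beside more abundant copies that were not heart-stage genes. SKP1, the adaptor of SCF ubiquitin ligases, had 11 copies considered, of which 4 were heart-stage genes. BnaN14g29010 was listed at 0 in DS, MG and OV and stood at 0.327 in GLOB and 24.8 in HEART. BnaN18g04390, BnaN08g03660 and BnaN04g01850 stood at 27.3, 16.5 and 12.9 in HEART and at no more than 6.70 elsewhere. The most abundant copy, BnaN07g34840, stood at 257 in OV, 877 in GLOB and 615 in HEART, then 70.9 in MG and 28.5 in DS. LLG1, a partner of receptor kinases at the cell surface, had 3 heart-stage copies at 12.0 to 14.0 in HEART, beside BnaN12g13990 at 344 in GLOB and 350.3 in HEART. BnaN12g13990 was itself highest in HEART, by a difference of 0.03, with 30.4 in OV, 13.5 in MG and 0.192 in DS. CYS4 had 4 heart-stage copies at 6.99 to 63.7, of which BnaN08g10080 depends on the scaling as given above, beside BnaN18g13340 at 356 in GLOB and 315 in HEART. Summed over copies, SKP1, LLG1 and CYS4 had differences of -0.39, 0.14 and 0.27, so at the level of the locus none of them passed the limit. The sources used here do not say how reads that fit several near-identical copies were counted, so single copies have uncertain values.

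**Figure D4:**
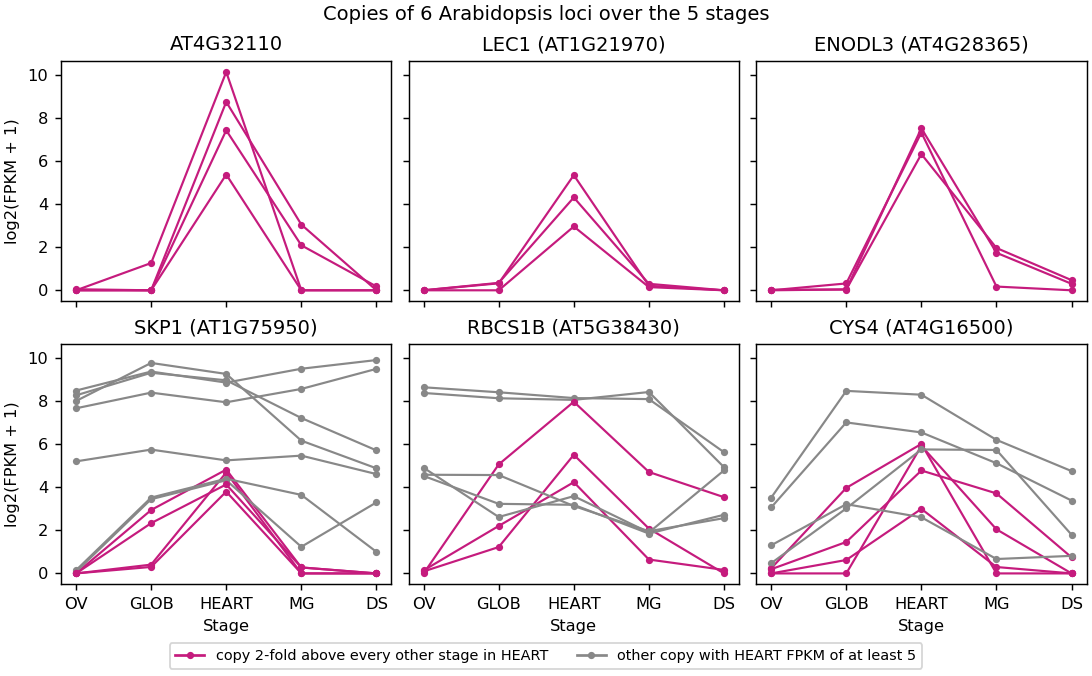
log2(FPKM + 1) over the 5 stages for each copy with HEART FPKM of at least 5 at 6 Arabidopsis loci, with heart-stage copies in pink and other copies in grey. All copies shown for AT4G32110, LEC1 and ENODL3 are heart-stage genes, while SKP1 (4 of 11), RBCS1B (3 of 8) and CYS4 (4 of 8) also have copies that are high in other stages.

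Homoeologous pairs, taken as loci with exactly 1 gene on each subgenome, numbered 6099, and 78 of them held a heart-stage gene. The pairing did not ask for corresponding chromosomes, so some pairs may not be homoeologues. Both genes were heart-stage genes in 18 pairs (23.1%). With the same rule on other stages the share was 37.7% in OV, 15.4% in GLOB, 40.3% in MG and 34.9% in DS, and these differences were not tested. By FPKM in HEART, both genes were within 2-fold of each other in 10 of the 18 pairs, the C gene was higher in 6 and the A gene in 2. On FPKM + 1 these counts were 12, 4 and 2. The pair of AT2G41225 was the highest, with BnaN13g23960 at 331 and BnaN03g19820 at 148 in HEART, next to 34.0 and 10.9 in MG. The pair of AT2G17723 had BnaN09g23150 at 89.6 and BnaN19g28880 at 50.5 in HEART, with no other value above 0.998.

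In the other 60 pairs, 32 heart-stage genes lay on A and 28 on C. Their median HEART level was 19.5 FPKM, and that of their partners 2.69. The partner was under 5 FPKM in HEART in 42 pairs and under 1 in 14. Of the 18 partners at 5 or more, 13 were highest in HEART without passing the limit. MIPS1, the enzyme that makes inositol phosphate, had its highest value in HEART in the A gene and in MG in the C gene. The A gene BnaN01g00700 stood at 0.0911 in OV, 0.448 in GLOB and 65.9 in HEART, then 23.5 in MG and 0.138 in DS. The C gene BnaN11g00830 stood at 42.0 in HEART and 96.8 in MG. XTH4, another wall-remodelling enzyme, had BnaN03g38860 on A at 48.4 in HEART and BnaN13g48890 on C at 1.98 in HEART and 11.9 in OV. These pairs were singled out after their values were seen.

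Over the genome, the A chromosomes carried 362 heart-stage genes, the C chromosomes 302, and 21 were not placed. The C share was 45.5%, beside 49.8% of the genes considered. Read from the letter of the Darmor identifier instead, it was 49.9% beside 50.4%, so the lower C share depends on how the subgenome is read. By chromosome, the share of heart-stage genes ran from 2.17% of the genes considered on chromosome 15 to 4.78% on chromosome 2.

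Some heart-stage genes lay side by side. In the order of identifiers along a chromosome, 50 of the 664 placed heart-stage genes (7.53%) were next to another one, as were 344 (1.71%) of the placed genes considered that were not heart-stage genes. They formed 25 runs of 2 and no longer run. In 14 runs both genes shared an Arabidopsis locus, such as BnaN08g29750 and BnaN08g29760 of AT3G57310, at 111 and 251 in HEART. With the same rule on the other stages, 4.11% of genes in OV, 4.58% in GLOB, 9.42% in MG and 14.5% in DS lay next to another of their set. Larger sets give more neighbours by size alone, and the sets ran from 379 genes in GLOB to 4524 in DS. The shares of the stages are therefore not directly comparable.

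The table names no Arabidopsis locus for 42 heart-stage genes (6.13%), beside 1.63% of the genes considered. For genes chosen by the same rule in other stages the share was 4.37% in OV, 3.69% in GLOB, 1.61% in MG and 2.65% in DS. The 42 genes had a median HEART level of 19.7 FPKM and a median difference of 2.06, against 1.82 for those with a locus. Besides BnaN13g33460 and BnaN06g08530, they included BnaN04g28030 at 64.6 and BnaN05g14320 at 64.2 in HEART.

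The 2-fold limit ran through a dense region of genes. The 3 genes just inside it were BnaN07g25100, BnaN01g12970 and BnaN02g00560, at 7.92, 45.0 and 7.42 FPKM in HEART and 3.46, 22.0 and 3.20 in GLOB. All 3 missed the limit under the median of ratios. The 3 just outside were BnaN10g06100, paired with the cellulase KORRIGAN1, BnaN03g11610, paired with the gibberellin methyltransferase GAMT2, and BnaN03g41510. They stood at 17.1, 45.3 and 29.8 in HEART, and their differences were 0.997, 0.997 and 0.996.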

How the data were processed

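The authors deposited 1 table with 1 FPKM value per gene and stage, from 14 libraries of polyadenylated RNA read as single ends of 100 bases. Per the series' design text among the labels, reads were trimmed with Trimmomatic 0.36, aligned with HiSat2 to the DH12075 genome and quantified and normalized with Cuffquant and Cuffdiff, while the submitters' processing notes name TopHat2 and Cuffnorm. Which aligner made the values, the normalization between libraries, the annotation and the way libraries were combined are not given in the sources used here. The table pairs genes with Darmor identifiers (91735 genes) and Arabidopsis loci (87904 genes). Symbols and roles were attached to loci from general knowledge of Arabidopsis. Another 2 columns match no sample described here and were not used.

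Stages were compared on log2(FPKM + 1), which understates differences of low genes, with pandas 2.3.3 in Python 3.11.15. The chromosome number within the identifier gave the subgenome. Counting was tested on simulated data of 12469 genes, where all 200 genes raised 8-fold were recovered with 0 false calls. The simulated stages otherwise differed only by small noise, so this outcome was set by the design. It checks the counting alone and says nothing of genes near the 2-fold limit. The genes named are the 20 with the largest difference at HEART FPKM of at least 10, the 10 highest in HEART, loci with at least 3 heart-stage genes, heart-stage genes of the lists, the regulators LEC1, L1L, LEC2, FUS3, ABI3 and WRI1, and the 3 genes on each side of the limit. Not every gene this rule allows is named. The genes and lists were chosen with earlier results of these data known, and some genes and the 5 families named as such were picked after their values were seen. Alternatives changed the pseudocount, the HEART minimum, the fold limit, the stages compared, the scaling, the summing of copies and the reading of subgenomes.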

Additional observations from a re-analysis of the deposited data

How the results depend on the processing

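The 685 genes became 747 with a pseudocount of 0.1, 469 with 5, 486 with a HEART minimum of 10 FPKM, 839 without MG, 731 without OV, 745 without DS, 646 with stages rescaled by the median of ratios, 729 (642 of the 685 among them) after quantile normalization and 1009 (674 of the 685 among them) with all stages brought to a common sum. Counts that moved by over 1.5 times were 1175 with a HEART minimum of 1 FPKM and again 1175 with no minimum, 303 at 4-fold, 3072 without GLOB and 297 loci, of 11593, with FPKM summed over copies. The summed loci included 244 of the 462 loci of the 685 genes and 53 others. The C share was 49.9% by the Darmor letter.

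The common sum moved the median log2 difference of HEART from MG, over the genes considered, from 0.29 to 1.48, from DS from 0.76 to 1.32 and from OV from 0.34 to -0.03, and the one from GLOB from -0.03 to 0.07. With it, embryo regulators had 6 genes past the limit, endosperm genes 3, flavonoid genes 20, auxin synthesis 2 and fasciclin-like proteins 11. With a HEART minimum of 1 FPKM, embryo regulators had 7, endosperm genes 9, mucilage genes 16 and the Dof4 locus 13. The genes standing out in OV became 4015 with a common sum and 1945 after quantile normalization, and those in MG 853 with a common sum. Of the 685 genes, 685 were called again with a pseudocount of 0.1, 674 with a common sum, 646 with the median of ratios, 642 after quantile normalization and 469 with a pseudocount of 5. No difference of the 685 turned negative in these 5 settings, the lowest being 0.54. Under a changed pseudocount none could, because HEART was above every other stage. A smaller pseudocount only widens each difference, so the 685 calls with 0.1 were certain. Genes named here that missed the limit with a pseudocount of 5 included BnaN02g06540, BnaN15g06740, BnaN16g08120, BnaN19g14300, BnaN18g45510 and BnaN02g14740.

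No paired analysis was possible because the table holds 1 value per stage and no value per library. For the same reason leaving out each replicate was not run, and no error of any value is known. Depth, and with it the precision of low values, is unknown.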

Other observations

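Some heart-stage genes were next highest in OV or DS. Of the 27 genes next highest in OV, the median OV level was 3.03 FPKM and the median HEART level 16.6. They included BnaN02g05350, paired with the carbonic anhydrase CA2, which stood at 2.07 in OV, 1.53 in GLOB and 18.2 in HEART, then 1.05 in MG and 0.828 in DS. A pair of light-harvesting genes of LHB1B1 was next highest in OV as well, BnaN05g10060 at 33.0 in OV and 72.9 in HEART, and BnaN14g12640 at 6.88 and 16.7. With a common sum their differences were 0.72 and 0.82 and missed the limit. Of the 17 genes next highest in DS, the median DS level was 2.52 FPKM and the median HEART level 12.7. BnaN05g32960, paired with the reversibly glycosylated polypeptide RGP3, stood at 0.0305 in GLOB, 13.5 in HEART and 0.236 in DS and was listed at 0 in OV and MG. BnaN02g02100, paired with WRKY26, stood at 0.0442 in OV, 0.127 in GLOB, 7.02 in HEART and 0.171 in DS and was listed at 0 in MG.

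The 19 genes listed at 0 in every stage but HEART ran from 5.83 to 50.5 FPKM there. They included 2 of the 3 heart-stage copies of AT2G43670, a carbohydrate-binding X8 domain protein, BnaN08g04490 at 36.2 and BnaN18g05450 at 20.8, to which the table gives the same Darmor identifier. BnaN08g25850, paired with the alanine aminotransferase ALAAT2, stood at 16.3.

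Specialised metabolism and stress genes, singled out after their values were seen, were also among the 685. Both BnaN16g40630 and BnaN19g14300, paired with SOT18, a sulfotransferase of glucosinolate synthesis, were heart-stage genes, at 24.3 and 8.59 FPKM in HEART with 8.45 and 2.86 in GLOB. BnaN09g50700 and BnaN18g45510, paired with the lipoxygenase LOX3 of jasmonate synthesis, stood at 28.8 and 9.08 in HEART with 13.7 and 2.14 in GLOB, and the former missed the limit under the median of ratios, at 0.99. BnaN12g16970 and BnaN02g14740, paired with the abscisic acid-responsive gene RD29B, stood at 16.4 and 10.5 in HEART.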
